A study of Mus musculus with 36 samples.

Results

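The genes followed here encode secreted acute phase and antimicrobial proteins. They are the serum amyloid A genes Saa1, Saa2 and Saa3, haptoglobin (Hp), lipopolysaccharide-binding protein (Lbp), pentraxin 3 (Ptx3), the secretory leukocyte protease inhibitor (Slpi), peptidoglycan recognition protein 1 (Pglyrp1) and the beta-defensins Defb3 and Defb14. They were taken by symbol, 10 of the 55414 genes counted, and all 10 were among the 20657 genes with enough counts to test. For 7 of the 10 (Saa1, Saa2, Saa3, Slpi, Pglyrp1, Defb3 and Defb14) the 3 unwounded libraries alone did not reach the cutoff of 0.329 CPM. These passed through their wound libraries, so their counts and medians against unwounded skin are a description. RNA was sequenced from 36 mouse skin biopsies. Wounds were taken 2, 4 and 12 days after injury from 2 arms, which the labels call PD and P without spelling the letters out. PD wounds comprised 5 libraries of day 2, 6 of day 4 and 6 of day 12, P wounds 5, 5 and 6, and unwounded skin, labelled day 0 with no arm, gave 3. The series title concerns removal of cells with high p21, so the questions are how these genes changed with wounding and time, and if the arms differed. The labels give no genotype, strain, age or sex, and no animal for any library, so the p-values measure only the spread between these samples, which may be technical.

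The acute phase response is the rapid change in secreted proteins that follows injury or infection. Interleukin 6, interleukin 1 and oncostatin M drive it through STAT3, C/EBP and NF-kB transcription factors, in hepatocytes for the serum proteins and in epithelium, fat and leukocytes for local production. In skin, several of these proteins act on microbes directly, by binding lipopolysaccharide or peptidoglycan, by opsonising, or by permeating membranes, while others limit proteases or bind free haemoglobin. Keratinocytes, macrophages and neutrophils are known sources of them in wounds. A biopsy mixes these cells, and in bulk RNA more cells of a type cannot be told apart from more RNA per cell.

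The libraries held 11807291 to 58375510 counts each (median 30396907). Levels are in counts-per-million (CPM) after TMM scaling, and adjusted p-values are from edgeR's quasi-likelihood test with Benjamini-Hochberg adjustment over all genes tested. The summed level of 11 neutrophil markers ranged from 1660 to 2540 CPM in PD wounds and 2510 to 4830 CPM in P wounds at day 2, against 78.5 to 109 CPM in unwounded skin, where Ly6g, Retnlg and Stfa2l1 had 0 counts. At day 4 it was 1520 to 6280 CPM in PD wounds and 1290 to 5260 CPM in P wounds. At day 12 it was 27.2 to 455 CPM in PD wounds and 28.2 to 302 CPM in P wounds. Hcar2, G0s2 and Mmp9 made up most of the unwounded sum, at means of 38.8, 34.3 and 18.1 CPM. The median log2 change of the 11 markers over unwounded skin at day 12 was 3.33 in PD and 4.79 in P wounds. For these medians, genes at or near 0 counts in unwounded skin were set at bounds. For 12 monocyte and macrophage markers the sums were 1610 to 3420 CPM in PD wounds and 2240 to 4710 CPM in P wounds at day 2, 1050 to 3460 and 1350 to 3640 CPM at day 4, and 417 to 1560 and 199 to 2210 CPM at day 12, against 154 to 437 CPM in unwounded skin. For 12 wound keratinocyte markers they were 2710 to 12700 CPM in PD wounds and 1860 to 15800 CPM in P wounds at day 2, 1970 to 29700 and 9310 to 24700 CPM at day 4, and 1310 to 4980 and 3670 to 7160 CPM at day 12, against 1530 to 2290 CPM in unwounded skin. Krtdap and Krt17 made up most of that unwounded sum, at means of 1110 and 585 CPM. The median log2 change of these 12 markers at day 12 was 3.46 in PD and 4.89 in P wounds, with 1 gene near 0 counts in unwounded skin set at its ratio. Markers of hepatocytes, the usual source of serum acute phase proteins, summed to at most 60.1 CPM over 12 genes in any wound and to 25.7 to 87.2 CPM in unwounded skin. Single markers moved in both directions. Alb, albumin, averaged 0.179 to 0.449 CPM over the wound groups, against 2.02 CPM in unwounded skin, and Apoa1 averaged 2.76 to 5.82 CPM over the wound groups of days 2 and 4, against 0.0191 CPM. The part of any of these cells in the results was not tested. The wound libraries also split within groups into a set of 15 and a set of 18, found in all genes other than these 10 and holding 20.4% of the variance within groups. Replicates 1 and 2 of every wound group lay in the set of 15, and most libraries with higher replicate numbers in the set of 18. The labels name no batch, and the part of the split in the results was not tested beyond the values given with them.

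Against unwounded skin, 9 of the 10 genes were higher in PD wounds at day 2, beside 21% of all genes tested called higher and 39.4% called in either direction. The same count, 9, was higher in P wounds at day 2 (22.3% of all genes higher, 41.3% in either direction), in PD wounds at day 4 (25.4% and 47.1%) and in P wounds at day 4 (23.6% and 43.3%, with 19.7% lower). At day 12 the count was 5 in PD wounds (24.2% and 44.9%) and 7 in P wounds (23.7% and 43.7%, with 20% lower). None of the 10 was called lower. Lbp was the gene not called at days 2 and 4. With the 4 genes at or near 0 in unwounded skin set at their bounds or ratios, the median log2 change of the 10 was 5 in PD wounds and 4.98 in P wounds at day 2. It was 3.89 in PD and 4.64 in P wounds at day 4, and 1.79 in PD and 2.31 in P wounds at day 12. The median over all genes lay between 0.02 and 0.10. Fitted values alone gave medians of 5.58 in PD and 5.93 in P wounds at day 2, 6.34 and 5.88 at day 4, and 2.36 and 3.20 at day 12.

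**Figure D1:**
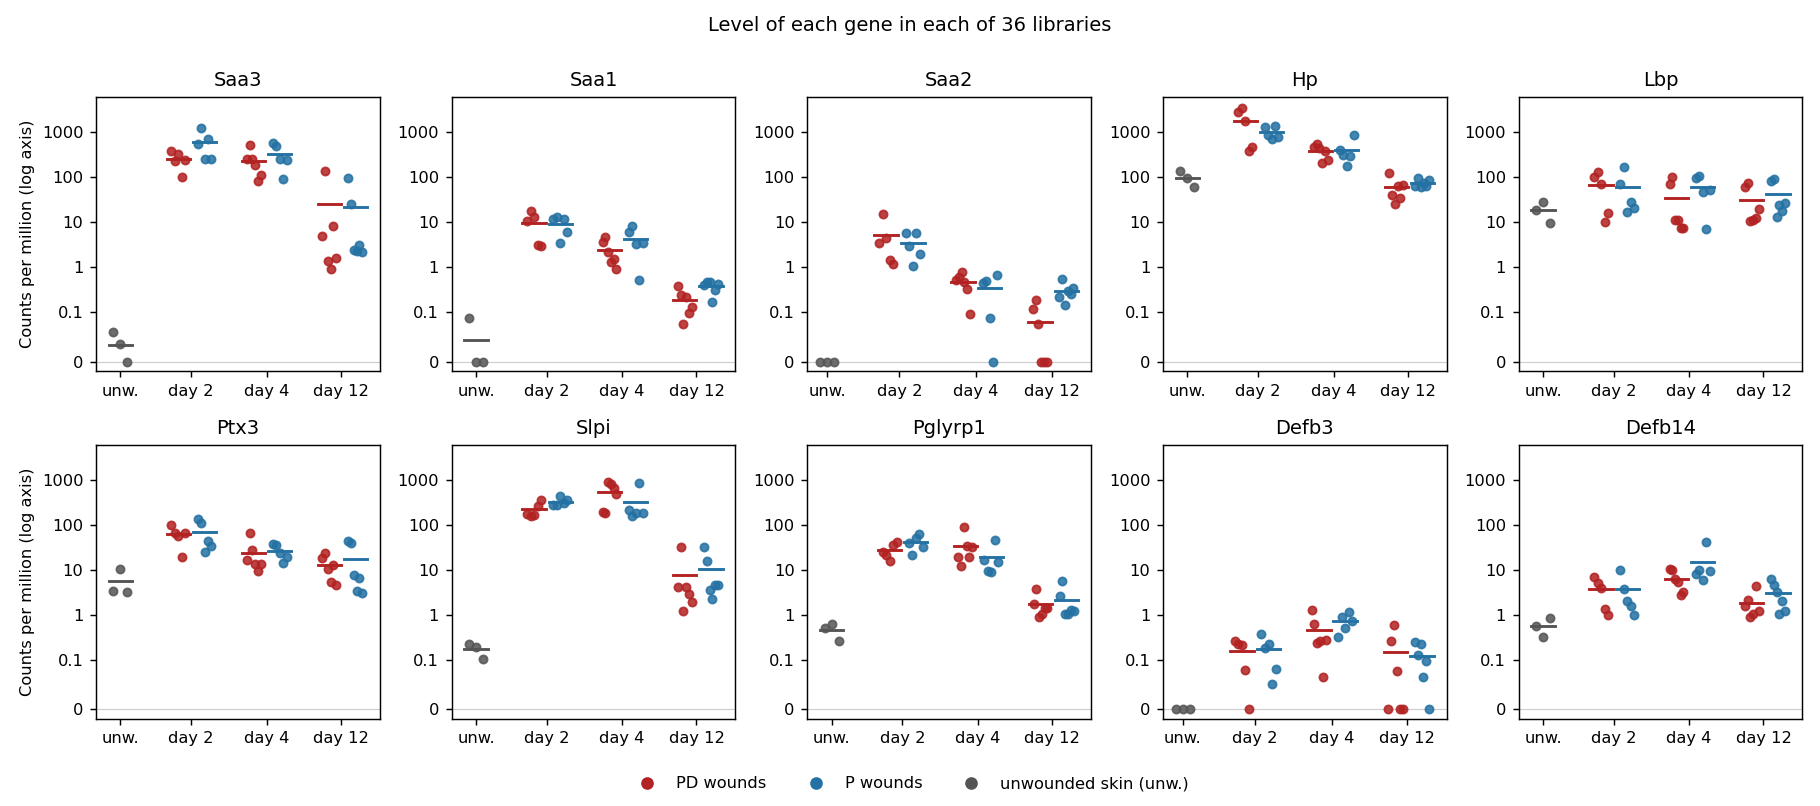
Level of each of the 10 genes in every library, in CPM on a log axis, with points at 0 drawn on the grey line; PD wounds are red, P wounds blue and unwounded skin grey, and the short bars are group means. Saa3 and Slpi lie at 83.6 CPM or more in every wound of days 2 and 4 and at 0.224 CPM or less in unwounded skin, while Lbp overlaps unwounded skin in every wound group.

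Summed over the 10 genes, the level was 2432 ± 1447 CPM in PD wounds and 2127 ± 589 CPM in P wounds at day 2 (SD, n = 5 each), against 124.3 ± 44.62 CPM in unwounded skin (n = 3). At day 4 the sums were 1254 ± 292.7 CPM in PD wounds (n = 6) and 1182 ± 279.1 CPM in P wounds (n = 5). At day 12 they were 141 ± 101.3 CPM in PD wounds and 173.4 ± 103.7 CPM in P wounds (n = 6 each). Hp was a large part of these sums, with means of 98.8 CPM in unwounded skin and 60.1 CPM in PD and 75.2 CPM in P wounds at day 12. A day 12 sum near that of unwounded skin therefore does not describe every member. Saa3 and Slpi were still called higher than in unwounded skin in both arms. Per kilobase of transcript, Hp was the highest of the 10 in unwounded skin, at 73.4 CPM per kb, with Lbp next at 7.35. At day 2 Hp still led, at 1320 CPM per kb in PD wounds and 752 in P wounds, followed in PD wounds by Saa3 and Slpi at 256 each and in P wounds by Saa3 at 596 and Slpi at 375. At day 4 Slpi led in both arms, at 610 CPM per kb in PD wounds and 358 in P wounds. At day 12 Hp led again, at 44.6 CPM per kb in PD wounds and 55.8 in P wounds.

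The serum amyloid A proteins are lipoprotein-bound acute phase proteins that also attract leukocytes through formyl peptide receptors. On GRCm39, Saa3 lies at chr7:46361422-46365576 on the minus strand, Saa1 at chr7:46389916-46392547 on the minus strand and Saa2 at chr7:46401214-46403737 on the plus strand. Saa1 and Saa2 stand head to head, 8.67 kb apart. Of the 50-base words of the canonical transcripts, 11.7% in Saa1 and 12.8% in Saa2 also occur in another gene of the family, against 0.939% in Saa3, so reads could be split between Saa1 and Saa2 and their separate levels are uncertain. In the GENCODE annotation Saa1 also overlaps the lncRNA Gm74180 on the same strand, and Saa2 overlaps it on the opposite strand. Whether the counting left out reads there is not known. RefSeq promoter sequences (GRCm38.p6) matched 7 of the 10 genes, and the stretches below are shown because the Saa genes differ there in matches to the C/EBP motif. Capitals mark the 8 bases that match TTNNGNAA on either strand, a motif held by 36.9% of all 32841 promoter windows of 250 bases.
Saa3, chr7:46715874-46715903, minus strand: atggcgaagacTTCAGAAAgtcctaactgg
Saa3, chr7:46715849-46715878, minus strand: actggccacatTTCTGGAAatgcctagatg
Saa3, chr7:46715787-46715816, minus strand: gaaaagttatcTTCTGAAAgagaaattatg
Saa3, chr7:46715757-46715786, minus strand: ggtaagtgggaTTATGCAAgatcaaacagg
Saa1, chr7:46743144-46743173, minus strand: ctgtgctcccaTTGCACAAtgagggagaat
Saa1, chr7:46743048-46743077, minus strand: ttgtctggagtTTTCCCAAgggtggtgcca
Saa2, chr7:46751639-46751668, plus strand: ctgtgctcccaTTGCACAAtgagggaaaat
Saa2, chr7:46751735-46751764, plus strand: ttgtctggagtATTACCAAgggtggtgcca
The last line is the Saa2 stretch aligned with the second Saa1 match and holds no match; its capitals mark the aligned bases. The Saa1 and Saa2 windows were 95.6% identical (238 of 249 aligned bases), against 64.4% for Saa1 and Saa3. A match is a description of the letters and not evidence of binding.

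Saa3, the member of the family best known for expression outside the liver, in macrophages and fat, had the largest rise of the 10 genes at day 2. At day 2 Saa3 had 375, 234, 335, 100 and 243 CPM in PD wounds and 538, 1250, 251, 699 and 261 CPM in P wounds, against 0.0374, 0.0199 and 0 CPM in unwounded skin. At day 4 Saa3 had a low of 83.6, a median of 221 and a high of 509 CPM in PD wounds, and 575, 494, 258, 90.6 and 238 CPM in P wounds. At day 12 Saa3 had a low of 0.9, a median of 3.36 and a high of 135 CPM in PD wounds, and a low of 2.15, a median of 2.82 and a high of 94.2 CPM in P wounds. Every wound library of every day lay above every unwounded library. Unwounded skin held 2 Saa3 counts in all, so the ratio of means carries a wide counting interval (exact Poisson, 95%, counting error only). That ratio was 12300 in PD wounds (3420 to 102000) and 28800 in P wounds (7980 to 238000) at day 2, and 11300 in PD and 15900 in P wounds at day 4. At day 12 it was 1220 in PD wounds (337 to 10100) and 1040 in P wounds (288 to 8600). The day 12 means behind it rest mostly on 1 library per arm, at 135 CPM in PD and 94.2 CPM in P wounds. At the day 12 medians the ratio would be far smaller. The edgeR adjusted p was between 2.78e-05 and 7.78e-05 in both arms at days 2 and 4, and at day 12 it was 0.000948 in PD wounds and 0.00112 in P wounds. Saa3 did not pass the test between days 2 and 4. At day 12 Saa3 was lower than at day 4 by a log2 change of -3.20 in PD wounds (SE 1.02, edgeR, adjusted p = 0.0155) and -3.93 in P wounds (SE 1.07, adjusted p = 0.00749). The days overlapped in both arms, through PD day 12 replicate 2 at 135 CPM and P day 12 replicate 1 at 94.2 CPM. With only the libraries compared, the PD change was not called (log2 -3.21, edgeR, adjusted p = 0.0624, the highest over its 23 alternatives, which reached down to 8.83e-06).

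Saa1 and Saa2, the serum forms made chiefly by liver, were expressed at much lower levels. At day 2 Saa1 had 10.5, 17.6, 13, 3.21 and 3.05 CPM in PD wounds and 11.8, 13.1, 3.56, 11.6 and 6.08 CPM in P wounds, against 0.0748, 0 and 0 CPM in unwounded skin. At day 4 Saa1 had a low of 0.918, a median of 1.85 and a high of 4.71 CPM in PD wounds, and 6.26, 8.4, 3.25, 0.519 and 3.42 CPM in P wounds. All wounds of days 2 and 4 stood above all unwounded libraries. Saa1 was higher by a ratio of 454 in PD wounds (126 to 3750) and 443 in P wounds (123 to 3660) at day 2. At day 4 the ratio was 115 in PD wounds (31.7 to 946) and 210 in P wounds (58.1 to 1730), each over 2 counts in unwounded skin (edgeR, adjusted p between 4.06e-07 and 1.05e-05). At day 12 Saa1 averaged 0.189 ± 0.120 CPM in PD wounds and 0.380 ± 0.122 CPM in P wounds (SD, n = 6 each), against 0.0249 ± 0.0432 CPM in unwounded skin (n = 3). The day 12 ratio was 9.08 in PD wounds (2.51 to 75) and 18.2 in P wounds (5.05 to 151), with edgeR adjusted p of 0.0428 in PD wounds and 0.00539 in P wounds. The PD call at day 12 was lost without PD day 12 replicate 1, 2 or 4 or unwounded replicate 2 or 3 (edgeR, adjusted p between 0.0546 and 0.215), with no filter (0.0689) and with limma-voom (0.349). The P call was lost without unwounded replicate 2 (adjusted p = 0.0565). Saa1 fell by 1.97 on the log2 scale between days 2 and 4 in PD wounds (SE 0.53, edgeR, adjusted p = 0.0269). That call was lost without PD day 4 replicate 4, 5 or 6 or PD day 2 replicate 1, 2 or 3 (adjusted p between 0.0618 and 0.103), with 2 surrogate variables (0.0605) or with only the libraries compared (0.0835). In P wounds that change was -1.07 (adjusted p = 0.239). From day 4 to day 12 Saa1 fell by 3.65 in PD wounds (SE 0.60, edgeR, adjusted p = 1.93e-05) and by 3.51 in P wounds (SE 0.58, adjusted p = 5.12e-05), with no overlap of the days in either arm.

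Saa2 was the member called lower at day 4 than at day 2 in both arms. At day 2 Saa2 had 3.46, 15.3, 4.39, 1.47 and 1.2 CPM in PD wounds and 5.9, 3.01, 1.06, 5.83 and 1.95 CPM in P wounds, against 0 counts in all 3 unwounded libraries. At day 4 Saa2 had a low of 0.0918, a median of 0.497 and a high of 0.799 CPM in PD wounds, and 0.452, 0.499, 0.0748, 0 and 0.69 CPM in P wounds. All day 2 wounds stood above all day 4 wounds of their own arm. With the unwounded group set at 3 counts in all, Saa2 was at least 165-fold higher in PD wounds and at least 114-fold higher in P wounds at day 2. It was at least 15.2-fold higher in PD and at least 11-fold higher in P wounds at day 4 (edgeR, adjusted p between 8.26e-06 and 0.00359). At day 12 Saa2 averaged 0.0602 ± 0.0779 CPM in PD wounds, with 3 of 6 libraries at 0, and 0.303 ± 0.139 CPM in P wounds (SD, n = 6 each). The day 12 level was at least 9.68-fold over unwounded skin in P wounds (edgeR, adjusted p = 0.00502) and was not called in PD wounds (adjusted p = 0.0933). Saa2 fell by 3.38 on the log2 scale between days 2 and 4 in PD wounds (SE 0.68, edgeR, adjusted p = 0.00443) and by 3.29 in P wounds (SE 0.73, adjusted p = 0.00519). After day 4 Saa2 fell by 2.80 in PD wounds (SE 0.80, edgeR, adjusted p = 0.00722), and the P change was -0.25 (adjusted p = 0.835).

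Haptoglobin binds free haemoglobin for clearance by macrophages and is stored in neutrophil granules as well as made by liver and fat. Hp lies at chr8:110301759-110305804 on the minus strand of GRCm39. Per kilobase it was the most abundant of the 10 genes at day 2. At day 2 Hp had 2740, 3520, 1760, 392 and 461 CPM in PD wounds and 1320, 864, 696, 1390 and 789 CPM in P wounds, against 139, 95.6 and 61.5 CPM in unwounded skin. The 3 high PD libraries were above every P library and the other two were below every P library. Hp was 18-fold higher in PD wounds (log2 4.17, SE 0.66, edgeR, adjusted p = 1.06e-05) and 10.2-fold higher in P wounds (log2 3.36, SE 0.63, adjusted p = 8.25e-05) than in unwounded skin, with no overlap. At day 4 Hp had a low of 208, a median of 408 and a high of 554 CPM in PD wounds, and 399, 315, 179, 295 and 863 CPM in P wounds. It was still 3.86-fold higher in PD wounds (edgeR, adjusted p = 0.00627) and 4.15-fold higher in P wounds (adjusted p = 0.00572). At day 12 the levels were 60.1 ± 35.8 CPM in PD wounds and 75.2 ± 15.3 CPM in P wounds (SD, n = 6 each), overlapping unwounded skin at 98.8 ± 39.0 CPM (n = 3). They were not called (edgeR, adjusted p = 0.255 in PD and 0.555 in P wounds). limma-voom called the PD level lower than unwounded skin (log2 -1.11, adjusted p = 0.0128). Hp fell by 2.22 on the log2 scale between days 2 and 4 in PD wounds (SE 0.46, edgeR, adjusted p = 0.00484), a change not called when only the libraries compared were fitted (adjusted p = 0.0583, the highest over its 22 alternatives). In P wounds that change was -1.30 (SE 0.47, edgeR, adjusted p = 0.0844), and without P day 4 replicate 5, which held 863 CPM, it was -1.77 and called (adjusted p = 0.0249). DESeq2 and limma-voom called it over all libraries (log2 -1.29 and -1.22, adjusted p = 0.0473 and 0.0176). After day 4 Hp fell by 2.67 in PD wounds (SE 0.45, edgeR, adjusted p = 3.12e-05) and by 2.45 in P wounds (SE 0.46, adjusted p = 0.00024), with no overlap of the days.

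Lipopolysaccharide-binding protein carries bacterial lipopolysaccharide to CD14 and toll-like receptor 4. Lbp lies at chr2:158148409-158174800 on the plus strand of GRCm39. It was the gene of the set that edgeR, with 1 mean per group and no other term, called in no comparison. At day 2 Lbp had 99.4, 134, 72.7, 10.2 and 15.8 CPM in PD wounds and 71.7, 167, 16.6, 28.8 and 21 CPM in P wounds, against 18.6, 27.7 and 9.44 CPM in unwounded skin. At day 4 Lbp had a low of 7.42, a median of 11.3 and a high of 102 CPM in PD wounds, and 94, 106, 48.1, 7.09 and 53.5 CPM in P wounds. At day 12 Lbp had a low of 10.5, a median of 16 and a high of 72.9 CPM in PD wounds, and a low of 13.2, a median of 25.2 and a high of 93.8 CPM in P wounds. In each group some libraries lay within the unwounded range or below it and others stood well above it. The log2 change over unwounded skin was 1.83 in PD wounds (95% interval -0.29 to 3.95) and 1.71 in P wounds (-0.40 to 3.82) at day 2. It was 0.91 in PD and 1.73 in P wounds at day 4, and 0.75 in PD and 1.20 in P wounds at day 12 (edgeR, adjusted p between 0.165 and 0.543). With 2 surrogate variables Lbp was called higher in all 6 groups (log2 1.58 to 2.45, adjusted p between 0.000162 and 0.0214). With limma-voom it was called in PD wounds at day 2 (log2 1.89, adjusted p = 0.0068) and in P wounds at day 4 (log2 2.03, adjusted p = 0.00212). limma-voom also called Lbp lower in P wounds at day 12 than at day 4 (log2 -1.63, adjusted p = 0.0128). For that step edgeR gave -0.53 with no call (adjusted p = 0.677). With the library set as a covariate, chosen after seeing the data, edgeR gave the opposite direction (0.77, adjusted p = 0.0493).

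Lbp followed the split of the wound libraries on every day, which none of the other 9 genes did over all wounds. Across all wounds Lbp ranged from 48.1 to 167 CPM in the set of 15 and from 7.09 to 28.8 CPM in the set of 18. By day the ranges were 71.7 to 167 and 10.2 to 28.8 CPM at day 2, 48.1 to 106 and 7.09 to 11.4 CPM at day 4, and 61.6 to 93.8 and 10.5 to 26.3 CPM at day 12. The sum of 12 fibroblast markers also differed without overlap at day 2 (7010 to 15300 against 1550 to 3690 CPM) and at day 12 (44500 to 92800 against 12000 to 27200 CPM), while at day 4 it overlapped (7830 to 23600 against 2920 to 11100 CPM). The sum of 10 endothelium markers likewise differed at day 2 (854 to 1180 against 300 to 582 CPM) and day 12 (592 to 1070 against 206 to 439 CPM). Wound keratinocyte markers differed at day 2 (4220 to 15800 against 1860 to 3310 CPM) and day 4 (15100 to 29700 against 1970 to 9310 CPM), and monocyte and macrophage markers at day 12 (1190 to 2210 against 199 to 755 CPM). Skeletal muscle markers were lower in the set of 15 at day 2 (17000 to 30700 against 36000 to 55900 CPM) and day 4 (5830 to 17900 against 22400 to 84400 CPM). The part of these cells in the Lbp level was not tested. PD day 4 held 2 libraries of the first set and 4 of the second, and P day 4 held 4 and 1. Since the sets were found in these data, their ranges are a description with no test. The sets were chosen to hold variance over all other genes, and the share of genes that split like Lbp was not counted.

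**Figure D2:**
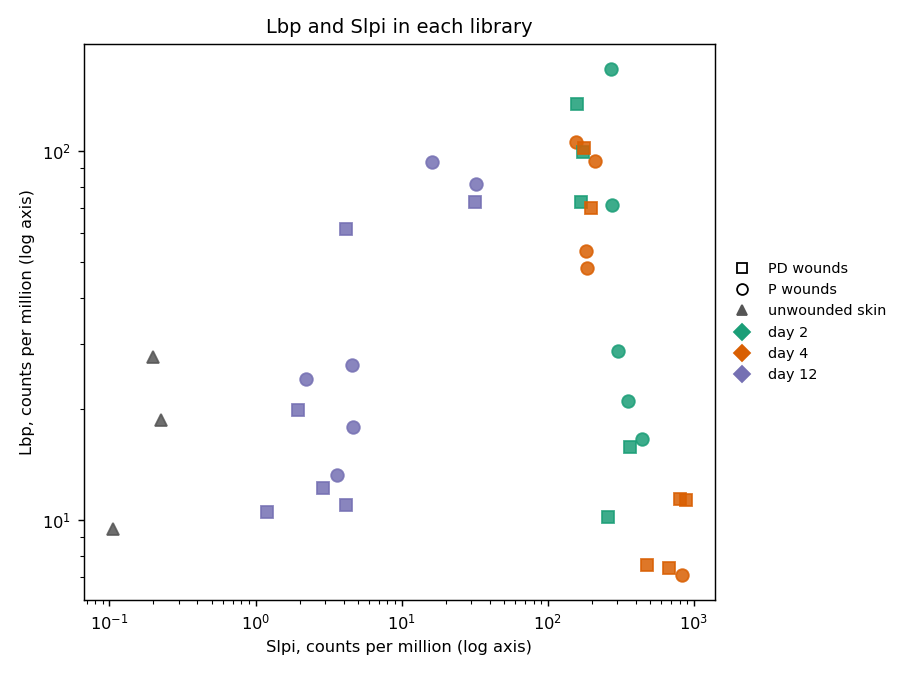
Lbp against Slpi in each library, both in CPM on log axes; squares are PD wounds, circles P wounds and grey triangles unwounded skin, coloured by day. Lbp leaves a gap between 28.8 and 48.1 CPM that no wound library fills, and at day 4 the 6 libraries with Lbp above the gap have Slpi at 156 to 211 CPM and the 5 below it have Slpi at 475 to 883 CPM.

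Pentraxin 3 is a soluble pattern recognition protein made locally by macrophages, fibroblasts and endothelium. Ptx3 lies at chr3:66127331-66133226 on the plus strand of GRCm39, inside the gene Veph1 on the opposite strand, and the strand setting of the counting is not given in the sources used here. Its promoter window held 1 C/EBP match, shown because it lies nearest the start of those found: chr3:66219819-66219848 (GRCm38.p6, plus strand), gtggtttaacaTTGTGCAAcctcttcagct. At day 2 Ptx3 had 98.4, 65.7, 57.6, 19.4 and 64.8 CPM in PD wounds and 131, 107, 25.4, 43.8 and 34.2 CPM in P wounds, against 3.44, 10.4 and 3.2 CPM in unwounded skin. The groups did not overlap, and Ptx3 was 10.7-fold higher in PD wounds (log2 3.41, SE 0.89, edgeR, adjusted p = 0.0028) and 11.9-fold higher in P wounds (log2 3.58, SE 0.90, adjusted p = 0.00183). At day 4 Ptx3 had a low of 9.64, a median of 15.1 and a high of 64.8 CPM in PD wounds, and 37.8, 34.9, 23.4, 13.9 and 19.2 CPM in P wounds. The PD wounds overlapped unwounded skin and the P wounds did not. Ptx3 was 4.24-fold higher in PD wounds (edgeR, adjusted p = 0.0356) and 4.51-fold higher in P wounds (adjusted p = 0.0346). The PD call was lost without PD day 4 replicate 2, at 64.8 CPM (log2 1.49, edgeR, adjusted p = 0.108), or unwounded replicate 1 or 3 (adjusted p = 0.126 each). The P call was lost without P day 4 replicate 1 or 2 or unwounded replicate 1 or 3 (adjusted p between 0.057 and 0.12). Both calls were also lost without the filter on low counts (adjusted p = 0.0725 in PD and 0.0709 in P wounds), while over all alternatives the adjusted p reached down to 9.54e-05 in PD and 8.73e-06 in P wounds. At day 12 Ptx3 averaged 12.6 ± 7.40 CPM in PD wounds and 17.1 ± 18.6 CPM in P wounds (SD, n = 6 each), against 5.66 ± 4.06 CPM in unwounded skin (n = 3). It was not called (edgeR, adjusted p = 0.235 in PD and 0.106 in P wounds). With 2 surrogate variables it was called (log2 3.07 in PD and 2.58 in P wounds, adjusted p = 0.00377 and 0.00779). With 1 mean per group and no other term, edgeR called no step between successive days for Ptx3. limma-voom called it lower at day 4 than at day 2 in PD wounds (log2 -1.90, adjusted p = 0.0059). It also called the fall from day 4 to day 12 in P wounds (log2 -2.57, adjusted p = 7e-05). With replicate number as a block, edgeR called Ptx3 lower at day 4 than day 2 in P wounds (log2 -1.28, adjusted p = 0.0383). The block also gave a call for day 12 below day 4 in PD wounds (log2 -0.98, adjusted p = 0.0385).

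SLPI inhibits neutrophil elastase and cathepsin G, kills bacteria and is made by wound keratinocytes, macrophages and neutrophils. Slpi lies at chr2:164195990-164231015 on the minus strand of GRCm39. Its promoter window is shown whole because Slpi had the largest edgeR change between days 4 and 12. The window is RefSeq GRCm38.p6 chr2:164356508-164356757, minus strand, with 3 C/EBP matches in capitals.
Slpi: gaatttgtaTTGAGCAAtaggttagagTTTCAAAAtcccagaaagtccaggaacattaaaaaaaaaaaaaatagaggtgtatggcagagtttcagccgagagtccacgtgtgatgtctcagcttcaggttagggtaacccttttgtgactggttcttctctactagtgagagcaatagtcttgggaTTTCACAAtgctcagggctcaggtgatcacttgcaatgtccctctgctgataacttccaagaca
At day 2 Slpi had 174, 159, 168, 259 and 363 CPM in PD wounds and 275, 270, 439, 304 and 354 CPM in P wounds, against 0.224, 0.199 and 0.105 CPM in unwounded skin. The wound and unwounded libraries lay far apart, and Slpi was 1190-fold higher in PD wounds (log2 10.22, SE 1.39, edgeR, adjusted p = 1.15e-06) and 1750-fold higher in P wounds (log2 10.77, SE 1.41, adjusted p = 5.42e-07), over 18 counts in unwounded skin. At day 4 Slpi had 197, 178, 883, 805, 671 and 475 CPM in PD wounds, with a median of 573 CPM, and 211, 156, 187, 831 and 183 CPM in P wounds. PD wounds thus held 4 high libraries and P wounds held 1, and the rest of both arms lay between 156 and 211 CPM. Slpi was 2840-fold higher in PD wounds and 1670-fold higher in P wounds at day 4 (edgeR, adjusted p = 2.01e-07 in PD and 6.35e-07 in P wounds). At day 12 Slpi had a low of 1.2, a median of 3.51 and a high of 31.6 CPM in PD wounds, and a low of 2.23, a median of 4.6 and a high of 32.3 CPM in P wounds. It was still 40.9-fold over unwounded skin in PD wounds and 56.4-fold in P wounds (edgeR, adjusted p = 0.000567 and 0.000255). Between days 2 and 4 edgeR called Slpi in neither arm (log2 1.25 in PD and -0.07 in P wounds, adjusted p = 0.313 and 0.973), while limma-voom called it higher at day 4 in PD wounds (log2 1.43, adjusted p = 0.00497). After day 4 Slpi fell by 6.12 on the log2 scale in PD wounds (SE 0.80, edgeR, adjusted p = 7.1e-07) and by 4.89 in P wounds (SE 0.76, adjusted p = 2.69e-05), with no overlap of the days. In the edgeR fit this was the largest fall of the 10 genes in either arm. In P wounds that rank depended on the measure. The P median fell from 187 to 4.6 CPM for Slpi and from 258 to 2.82 CPM for Saa3. Over the alternative settings the lowest P change was -5.68 for Slpi and -7.05 for Saa3.

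The day 4 Slpi level followed the library sets in the opposite direction to Lbp. It was 156 to 211 CPM in the 6 day 4 libraries of the first set and 475 to 883 CPM in the 5 of the second. The neutrophil markers summed to 1290 to 1880 CPM in the first set and 3450 to 6280 CPM in the second at day 4, and 12 wound keratinocyte markers to 15100 to 29700 CPM in the first and 1970 to 9310 CPM in the second. Markers of 3 other lists also differed without overlap at day 4. These were basal and suprabasal keratinocytes (26400 to 50400 against 11100 to 19800 CPM) and skeletal muscle (5830 to 17900 against 22400 to 84400 CPM). Mast cell markers were the other list (487 to 823 against 1190 to 2200 CPM), most of it Hdc. Whether any of these cells account for the Slpi level was not tested. At day 2 the sets overlapped for Slpi (159 to 275 against 259 to 439 CPM), and at day 12 they overlapped with the first set higher (4.14 to 32.3 against 1.2 to 4.65 CPM). Saa1 also differed without overlap between the sets at day 4 (3.25 to 8.4 against 0.519 to 2.16 CPM), and Defb14 at day 2 (3.73 to 10.1 against 1.01 to 2.03 CPM). So did Ptx3 (18.2 to 42.8 against 3.14 to 12.8 CPM) and Pglyrp1 (1.77 to 5.59 against 0.892 to 1.46 CPM) at day 12. The share of all genes that differ this way was not counted, so these splits are not a trait particular to the members.

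Pglyrp1 encodes a peptidoglycan-binding protein of neutrophil granules that kills bacteria. It lies at chr7:18605256-18624384 on the plus strand of GRCm39. Its window was the only one of the 7 with a match to the NF-kB motif, which 3.9% of all windows hold, and the match is in capitals: chr7:18884587-18884616 (GRCm38.p6, plus strand), ggtctgggtcGGAAAGTCCCgcccaggtgt. At day 2 Pglyrp1 had 24.3, 21.8, 15.8, 36.4 and 41.3 CPM in PD wounds and 38.8, 21.5, 52, 61.7 and 31.5 CPM in P wounds, against 0.523, 0.618 and 0.262 CPM in unwounded skin. Every wound of days 2 and 4 stood above every unwounded library. Pglyrp1 was 56.7-fold higher in PD wounds (log2 5.83, SE 0.81, edgeR, adjusted p = 1.75e-06) and 83.5-fold higher in P wounds (log2 6.38, SE 0.83, adjusted p = 4.98e-07). At day 4 Pglyrp1 had a low of 12.2, a median of 26.1 and a high of 89.9 CPM in PD wounds, and 16.6, 9.61, 9.12, 45.6 and 15.2 CPM in P wounds. The level was 70.1-fold over unwounded skin in PD wounds and 39-fold in P wounds (edgeR, adjusted p = 5.51e-07 and 4.63e-06). At day 12 Pglyrp1 averaged 1.72 ± 1.01 CPM in PD wounds and 2.13 ± 1.79 CPM in P wounds (SD, n = 6 each), 3.53-fold in PD and 4.36-fold in P wounds over 0.468 ± 0.184 CPM in unwounded skin (edgeR, adjusted p = 0.0331 and 0.0147). The PD call at day 12 was lost without PD day 12 replicate 2 or any 1 of the 3 unwounded libraries (edgeR, adjusted p between 0.0592 and 0.0988), with no filter (0.0567) or with limma-voom (0.0933). The P call was lost without P day 12 replicate 2 or unwounded replicate 3 (adjusted p = 0.0529 and 0.055) or with limma-voom (0.0992). Pglyrp1 fell by 4.31 on the log2 scale between days 4 and 12 in PD wounds (SE 0.54, edgeR, adjusted p = 3.45e-07) and by 3.16 in P wounds (SE 0.52, adjusted p = 5.37e-05). Between days 2 and 4 edgeR called it in neither arm, but without P day 4 replicate 4, at 45.6 CPM, the P change was -1.67 and called (edgeR, adjusted p = 0.0335), as it was by limma-voom over all libraries (log2 -1.52, adjusted p = 0.000123).

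Beta-defensins are short cationic peptides of epithelium that permeate microbial membranes and attract leukocytes. Defb14 lies at chr8:19244373-19245228 and Defb3 at chr8:19343376-19345350, both on the plus strand of GRCm39 and within 101 kb. No 50-base word of either canonical transcript occurs in the other. At day 2 Defb14 had 6.9, 5.21, 3.93, 1.37 and 1.01 CPM in PD wounds and 10.1, 3.73, 2.03, 1.58 and 1.02 CPM in P wounds, against 0.561, 0.319 and 0.839 CPM in unwounded skin. At day 4 Defb14 had a low of 2.71, a median of 5.79 and a high of 10.5 CPM in PD wounds, and 8.27, 9.82, 5.87, 41.6 and 9.4 CPM in P wounds. Unlike the other members it was at its highest mean in both arms at day 4, as Defb3 was. Defb14 was 6.64-fold higher in PD wounds (log2 2.73, SE 0.86, edgeR, adjusted p = 0.0115) and 6.70-fold higher in P wounds (log2 2.74, SE 0.86, adjusted p = 0.0105) at day 2. It was 11.5-fold higher in PD and 26.9-fold higher in P wounds at day 4 (adjusted p = 0.00146 and 0.000154). Without unwounded replicate 2 the day 2 calls were lost in both arms (edgeR, adjusted p = 0.0621 in PD and 0.0618 in P wounds), and without P day 2 replicate 1 the P call was lost (adjusted p = 0.0546). At day 12 Defb14 averaged 1.88 ± 1.28 CPM in PD wounds, not called but with no overlap of unwounded skin (edgeR, adjusted p = 0.0769, and between 0.00622 and 0.231 over the alternatives). It averaged 3.12 ± 2.11 CPM in P wounds (SD, n = 6 each), 5.64-fold over unwounded skin (adjusted p = 0.0162; 0.0818 without unwounded replicate 2).

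Defb14 was the 1 gene of the 10 that edgeR called higher at day 4 than at day 2, in P wounds (log2 2.00, SE 0.64, edgeR, adjusted p = 0.0474). P day 4 replicate 4, at 41.6 CPM, weighed on that value: without it the change was 1.19 (adjusted p = 0.215). The call was also lost without P day 4 replicate 1 or 2 or P day 2 replicate 2, 3, 4 or 5 (adjusted p between 0.0512 and 0.129), without the composition factor (0.0562), with no filter (0.0894) or with only the libraries compared (0.115). After day 4 Defb14 fell by 1.76 on the log2 scale in PD wounds (SE 0.59, edgeR, adjusted p = 0.022) and by 2.25 in P wounds (SE 0.61, adjusted p = 0.00705). The P call was lost without P day 4 replicate 4 (log2 -1.40, edgeR, adjusted p = 0.0876). The PD call was lost without PD day 4 replicate 1 or PD day 12 replicate 4 (adjusted p = 0.0523 and 0.0502) or with 2 surrogate variables (log2 -1.04, adjusted p = 0.21).

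Defb3 was a low-abundance member, with 0 counts in unwounded skin and no wound library above 1.27 CPM. Per kilobase, Saa2 was lower than Defb3 at day 4 in both arms and at day 12 in PD wounds, and Defb3 was the lower in the other wound groups. At day 2 Defb3 had 0.266, 0.228, 0.217, 0.0611 and 0 CPM in PD wounds and 0.368, 0.185, 0.231, 0.0297 and 0.062 CPM in P wounds. At day 4 Defb3 had a low of 0.0417, a median of 0.267 and a high of 1.27 CPM in PD wounds, and 0.323, 0.919, 0.523, 1.15 and 0.719 CPM in P wounds. At day 12 Defb3 had a low of 0, a median of 0.0281 and a high of 0.586 CPM in PD wounds, and a low of 0, a median of 0.112 and a high of 0.249 CPM in P wounds. With unwounded skin set at 3 counts in all, Defb3 was at least 14.4-fold higher in PD wounds and at least 23.3-fold higher in P wounds at day 4 (edgeR, adjusted p = 0.00391 and 0.00195). The bound was 4.94-fold in PD and 5.6-fold in P wounds at day 2 (edgeR, adjusted p = 0.0348 and 0.0271) and 4.85-fold in PD and 3.94-fold in P wounds at day 12 (adjusted p = 0.0293 and 0.0455). Libraries at 0 in PD wounds at day 2 and in both arms at day 12 overlapped unwounded skin. Day 4 was not called over day 2 by edgeR (log2 1.51 in PD and 2.00 in P wounds, adjusted p = 0.344 and 0.171), but limma-voom called the P change (log2 2.28, adjusted p = 0.0106). The calls of days 2 and 12 rest on few counts: each was lost without any 1 of the 3 unwounded libraries (edgeR, adjusted p between 0.0562 and 0.144). They were lost as well without PD day 2 replicate 1, 2 or 3, P day 2 replicate 1, PD day 12 replicate 3 or P day 12 replicate 1, 2, 3 or 5 (adjusted p between 0.0504 and 0.0862). The day 12 calls were lost with limma-voom (0.152 in PD and 0.0771 in P wounds) or, in P wounds, with no filter (0.0593). After day 4 Defb3 fell by 2.50 on the log2 scale in P wounds (SE 0.87, edgeR, adjusted p = 0.0364). This call was lost without P day 12 replicate 2, 4, 5 or 6 or P day 4 replicate 2, 4 or 5 (adjusted p between 0.0507 and 0.0786) or with no filter (0.0594). In PD wounds that change was -1.49 (adjusted p = 0.182), and -2.65 and called without PD day 12 replicate 3 (adjusted p = 0.026). The Defb3 window held 2 C/EBP matches, shown as it is the beta-defensin window that the table holds.
Defb3, chr8:19293171-19293200 (GRCm38.p6, plus strand): gatcctcacatTTGCATAAggaacactgag
Defb3, chr8:19293238-19293267 (GRCm38.p6, plus strand): aggtgctcttgTTTCATAAttgtaattttg

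Between days the set mostly declined after day 4. Between days 2 and 4, 0 of the 10 genes were called higher and 3 lower in PD wounds (2.67% and 1.59% of all genes, 4.26% in either direction), namely Saa1, Saa2 and Hp. In P wounds over the same step 1 was called higher and 1 lower (5.76% and 2.7% of all genes, 8.45% in either direction), Defb14 and Saa2. Between days 4 and 12, 7 of 10 were called lower in PD wounds (15.6% of all genes lower, 31.3% in either direction) and 7 in P wounds (12.6% and 23.8%), and 0 were called higher. Saa1, Saa3, Hp, Slpi, Pglyrp1 and Defb14 were called in both arms, Saa2 in PD wounds and Defb3 in P wounds. Lbp and Ptx3 were called in neither. The median log2 change of the 10 between days 4 and 12 was -2.73 in PD wounds and -2.48 in P wounds, against 0 in PD and -0.01 in P wounds over all genes. In the order of group means, no neighbouring groups differed past the threshold for Lbp, Ptx3 or Defb14. For Slpi the steps that passed were PD day 2 over P day 12 (edgeR, adjusted p = 3.37e-05) and PD day 12 over unwounded skin (adjusted p = 0.000567), and for Hp the 1 step was PD day 4 over unwounded skin (adjusted p = 0.00627).

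**Figure D3:**
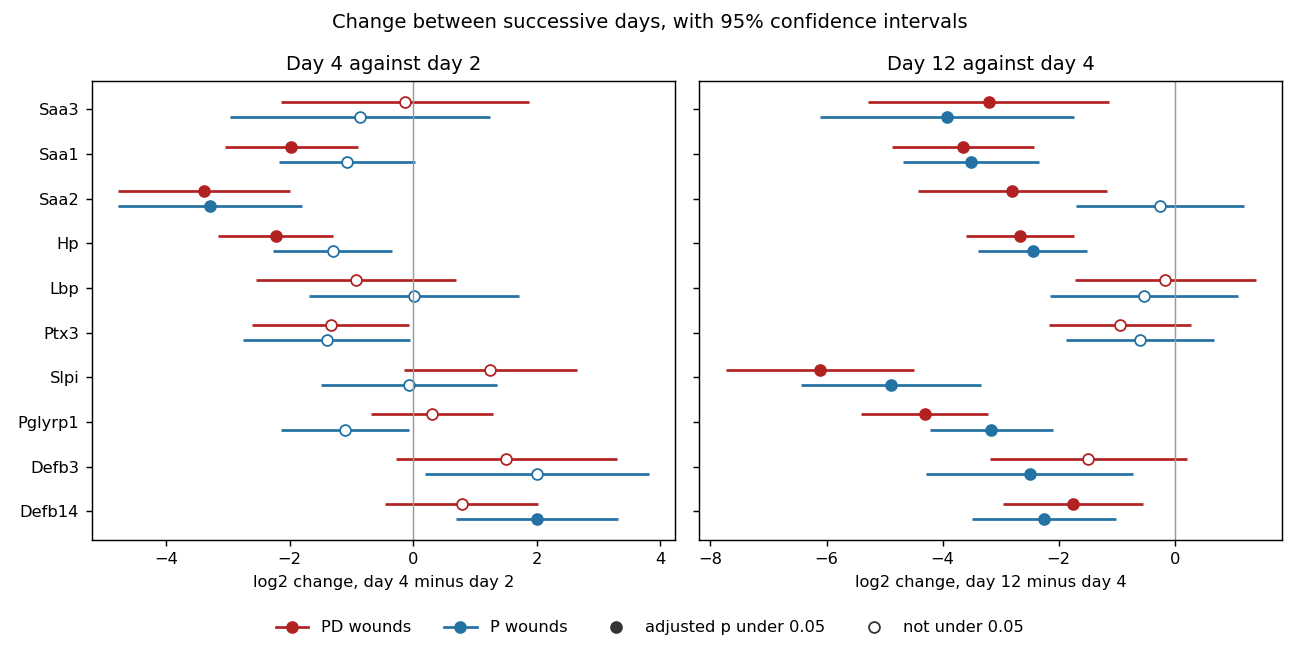
Log2 change of each gene between successive days, later minus earlier, in PD wounds (red) and P wounds (blue), with 95% confidence intervals; filled points have an adjusted p under 0.05 and open points do not. Between days 4 and 12 most points lie left of 0, with Slpi farthest left at -6.12 in PD wounds, while Lbp stays near 0.

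Between the arms, edgeR called 0 of the 10 genes at day 2, day 4 or day 12, beside 0% of all genes tested on each day. At an unadjusted p under 0.05 the counts were 0, 1 and 1 of the 10, beside 793, 2369 and 1022 of the 20657 genes tested. DESeq2 called 0 on each day, and limma-voom called 0, 2 and 0. At day 2 the log2 difference, PD minus P, was -1.22 for Saa3 (95% interval -3.34 to 0.90), 0.81 for Hp (-0.14 to 1.77) and -0.55 for Slpi (-1.97 to 0.88). At day 4 Defb14 averaged 6.35 ± 3.29 CPM in PD wounds (n = 6) and 14.99 ± 14.95 CPM in P wounds (SD, n = 5), a difference of -1.23 (-2.44 to -0.02, unadjusted p = 0.0471, edgeR, adjusted p = 0.431). The day 4 difference was 0.77 for Slpi (-0.61 to 2.15), 0.85 for Pglyrp1 (-0.16 to 1.85) and -0.82 for Lbp (-2.44 to 0.81). The limma-voom calls at day 4 were Slpi (log2 1.28, adjusted p = 0.0163) and Lbp (log2 -2.17, adjusted p = 0.0498), which differed without overlap between the library sets on that day, as did Saa1. Within the first set Slpi was 178 to 197 CPM in 2 PD wounds and 156 to 211 CPM in 4 P wounds, and within the second it was 475 to 883 CPM in 4 PD wounds and 831 CPM in 1 P wound. Lbp was 70.3 to 102 CPM in PD wounds and 48.1 to 106 CPM in P wounds within the first set, and 7.42 to 11.4 CPM in PD wounds and 7.09 CPM in the P wound within the second. With the set as a covariate the edgeR difference at day 4 was 0.85 for Slpi (adjusted p = 0.819) and 0.01 for Lbp (adjusted p = 0.995). That covariate was 1 term shared by all days. Slpi was higher in the second set at day 4 and in the first at day 12, so the term does not describe its day 4 split.

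At day 12 Saa2 had a low of 0, a median of 0.0279 and a high of 0.187 CPM in PD wounds, and a low of 0.15, a median of 0.273 and a high of 0.549 CPM in P wounds. These overlapped, and the difference was -2.11 (95% interval -3.77 to -0.46, unadjusted p = 0.0142, edgeR, adjusted p = 0.884). Saa1 differed by -1 at day 12 (-2.26 to 0.25). Averaged over the days, the difference ran from -0.66 for Defb14 (-1.36 to 0.05) and -0.61 for Saa1 (-1.27 to 0.04) to 0.13 for Hp (-0.40 to 0.65). Of the 10 genes 0 passed (0 at an unadjusted p under 0.05, where 2488 of 20657 genes passed, and 0 with DESeq2 or limma-voom; 0% of all genes). The change of the PD minus P difference was called by edgeR for 0 genes between days 2 and 4 and for 0 between days 4 and 12, beside 0% of all genes for each. At an unadjusted p under 0.05 the counts were 0 and 1, beside 1472 and 623 of 20657 genes. limma-voom called 4 between days 2 and 4, Slpi (2.13), Pglyrp1 (1.79), Lbp (-3.22) and Defb14 (-1.86), beside 2797 of 20657 genes, and DESeq2 called 0.

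**Figure D4:**
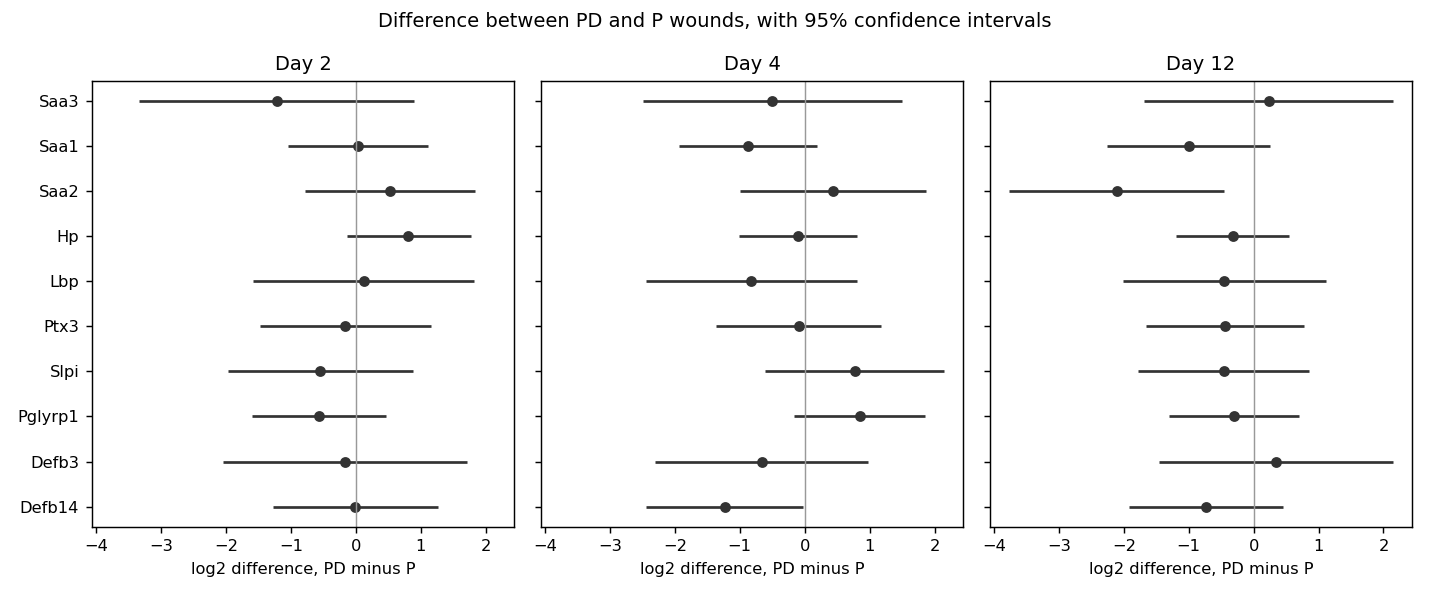
Log2 difference between PD and P wounds, PD minus P, for each gene at days 2, 4 and 12, with points for the estimates and bars for 95% confidence intervals. The bars cross 0 for every gene except Defb14 at day 4 (-2.44 to -0.02) and Saa2 at day 12 (-3.77 to -0.46), which did not pass after adjustment over all genes.

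Of the cytokines, receptors, transcription factors and feedback genes listed for the acute phase response, 24 of 27 were tested. Socs3 and Nfkbia among them encode inhibitors of this signalling. At day 2, 16 were higher and 1 lower in PD wounds and 17 higher and 1 lower in P wounds. At day 4, 17 were higher in PD wounds and 18 in P wounds, with 1 lower in each, and at day 12 the counts were 5 in PD and 6 in P wounds, with 3 lower in each. Of all genes, 21% were higher in PD wounds and 22.3% in P wounds at day 2. These shares were 25.4% and 23.6% at day 4, and 24.2% and 23.7% at day 12. The day 12 counts of higher genes in the list were near this background. The list's median log2 change was 1.67 in PD and 1.85 in P wounds at day 2, 2.26 in PD and 1.80 in P wounds at day 4, and 0.09 in PD and 0.23 in P wounds at day 12. Il1b, which encodes interleukin 1 beta, averaged 1070 ± 312 CPM in PD wounds and 1290 ± 493 CPM in P wounds at day 2 (SD, n = 5 each), against 0.837 ± 0.277 CPM in unwounded skin (n = 3). Osm, oncostatin M, averaged 102 ± 35.2 CPM in PD wounds and 139 ± 38.5 CPM in P wounds at day 2, against 0.239 ± 0.11 CPM in unwounded skin. Both passed the test (edgeR, adjusted p between 5.3e-06 and 7.24e-05). Il6 had 0 counts in unwounded skin and 12.2 ± 6.40 CPM in PD wounds and 10.1 ± 3.16 CPM in P wounds at day 2. From day 4 to day 12, 19 of the 24 were called lower in PD wounds and 17 in P wounds, beside 15.6% and 12.6% of all genes.

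Among 21 other acute phase genes tested, 9 were higher and 3 lower in PD wounds and 10 higher and 3 lower in P wounds at day 2. At day 4, 7 were higher and 2 lower in PD wounds and 7 higher and 3 lower in P wounds, and at day 12 these counts were 4 and 5 in PD wounds and 6 and 6 in P wounds. Of all genes, 21% were higher and 18.4% lower in PD wounds at day 2, and 22.3% and 19% in P wounds. At day 4 these shares were 25.4% and 21.8% in PD wounds and 23.6% and 19.7% in P wounds. The day 12 counts are near the share of all genes called in PD wounds (24.2% higher, 20.7% lower). The day 12 shares in P wounds were 23.7% and 20%. With the genes at 0 in unwounded skin at their bounds, the list's median was 1.93 in PD wounds and 1.78 in P wounds at day 2, 1.26 in PD and 1.12 in P wounds at day 4, and 0.56 in PD and -1.01 in P wounds at day 12. The fitted medians were 2.25 in PD and 2.61 in P wounds at day 2, the same at day 4, and 0.61 in PD and 0.27 in P wounds at day 12, so that the P median at day 12 differed in sign. Lcn2, an iron-scavenging acute phase protein, was 217 ± 44.0 CPM in PD wounds and 355 ± 78.1 CPM in P wounds at day 2 (SD, n = 5 each), against 0.825 ± 0.125 CPM in unwounded skin (n = 3; edgeR, adjusted p = 4.79e-09 and 1.35e-09). Orm1, a serum transport protein of the acute phase, was 13.9 ± 9.10 CPM in PD wounds and 15.5 ± 4.18 CPM in P wounds at day 12 (n = 6 each), against 85.8 ± 4.87 CPM in unwounded skin. It was lower than in unwounded skin in both arms (log2 -2.62 in PD and -2.47 in P wounds, edgeR, adjusted p = 6.02e-05 and 0.000123). Orm3 was lower on that day as well (log2 -3.05 in PD and -3.24 in P wounds, edgeR, adjusted p = 7.35e-05 and 3.56e-05).

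Of 19 receptors and binding partners tested, 15 were higher in each arm at day 2, 14 in PD wounds and 15 in P wounds at day 4 and 10 in PD and 11 in P wounds at day 12, with at most 1 lower. The share of all genes called higher was between 21% and 25.4% over these comparisons. The median log2 change of these partners was 2.78 in PD and 3.12 in P wounds at day 2, 2.74 in PD and 2.91 in P wounds at day 4, and 1.32 in PD and 1.52 in P wounds at day 12. Cd14, the receptor to which Lbp hands lipopolysaccharide, averaged 2150 ± 1160 CPM in PD wounds (n = 6) and 1300 ± 1040 CPM in P wounds (n = 5) at day 4, against 3.66 ± 0.582 CPM in unwounded skin (n = 3; edgeR, adjusted p = 9.68e-07 and 3.22e-06). Fpr2, a receptor of serum amyloid A, averaged 56.3 ± 27.1 CPM in PD wounds and 37.6 ± 26.7 CPM in P wounds at day 4, against 0.0698 ± 0.0438 CPM in unwounded skin (edgeR, adjusted p = 2.51e-07 and 8.62e-07). Between days 4 and 12 Cd14 fell in both arms (log2 -5.99 in PD and -5.73 in P wounds, edgeR, adjusted p = 9.82e-07 and 6.09e-06). That step called 13 of the 19 lower in PD wounds and 11 in P wounds, beside 15.6% and 12.6% of all genes.

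Of 25 other antimicrobial genes tested, 11 were higher and 5 lower in PD wounds and 12 higher and 5 lower in P wounds at day 2. At day 4, 12 were higher in each arm, with 1 lower in PD and 0 in P wounds, and at day 12, 8 were higher and 2 lower in PD wounds and 10 higher and 0 lower in P wounds. Of all genes, 21% were higher and 18.4% lower in PD wounds at day 2, and 22.3% higher and 19% lower in P wounds. At day 4 the shares of all genes were 25.4% and 21.8% in PD wounds and 23.6% and 19.7% in P wounds. At day 12 they were 24.2% and 20.7% in PD wounds and 23.7% and 20% in P wounds. With bounds, the list's median was 1.88 in PD and 1.79 in P wounds at day 2, 1.17 in PD and 1.67 in P wounds at day 4, and 0.65 in PD and 1.09 in P wounds at day 12. The fitted medians differed at day 2 in PD wounds (1.93) and at day 4 in P wounds (2.07). S100a9, a calprotectin subunit of neutrophils, was 4120 ± 2690 CPM in PD wounds and 2210 ± 1580 CPM in P wounds at day 4, against 0.173 ± 0.0821 CPM in unwounded skin (edgeR, adjusted p = 7.52e-06 and 1.81e-05). A list of SLPI relatives and target proteases had 16 genes tested, among them Mpo and Grn, which are neither. Of these 16, 8 were higher and 2 lower in PD wounds and 7 higher and 3 lower in P wounds at day 2. At day 4, 5 were higher and 1 lower in PD wounds and 6 higher and 2 lower in P wounds, and at day 12, 5 and 4 in PD wounds and 5 and 3 in P wounds. Of all genes, 25.4% were higher in PD and 23.6% in P wounds at day 4. At day 12 the shares were 24.2% higher and 20.7% lower in PD wounds and 23.7% and 20% in P wounds, near the counts of this list. That list's median at bounds was 1.57 in PD and 1.14 in P wounds at day 2 (fitted 1.57 and 1.20), 0.87 in PD and 1.31 in P wounds at day 4 (fitted 0.96 and 1.32), and 0.16 in PD and 0.41 in P wounds at day 12 (fitted 0.16 and 0.42). Wfdc12, a relative of Slpi in epidermis, was 27.5 ± 29.2 CPM in PD wounds and 48.6 ± 27.6 CPM in P wounds at day 4, against 0.165 ± 0.170 CPM in unwounded skin (edgeR, adjusted p = 0.000435 and 0.000243). Wfdc3 was 5.29 ± 3.74 CPM in PD wounds and 3.34 ± 1.72 CPM in P wounds at day 4, against 43.2 ± 4.06 CPM in unwounded skin, and was lower (log2 -3.02 in PD and -3.69 in P wounds, edgeR, adjusted p = 0.00389 and 0.00165). Of the genes in these lists, edgeR called 0 between PD and P wounds on any day.

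The likeness of patterns was measured as the root mean square difference, in log2 units, of group means over the 7 groups, each profile centred on its own mean, among 15398 genes. Pglyrp1 had the closest neighbours, Klra2 at 0.13, Olr1 at 0.15 and Il18rap at 0.21. Slpi was closest to Cxcr2, a neutrophil chemokine receptor, at 0.37, Cd300lf at 0.47 and S100a8 at 0.52. Saa3 was closest to S100a8 at 0.54, Clec4d at 0.61 and Cd300lf at 0.86. The nearest gene to Saa1 was Msr1 at 0.52, to Saa2 Ccl2 at 0.69, to Hp F630028O10Rik at 0.38, to Lbp Pcdhgc3 at 0.22 and to Ptx3 Ifi209 at 0.20. Defb3 lay nearest Gm47071 at 0.25, Prss27 at 0.29 and Rbp2 at 0.30, and Defb14 nearest Rbp2 at 0.26, Prss27 at 0.27 and Fabp5 at 0.35. Within the set the closest pair was Defb3 and Defb14 at 0.26, followed by Saa1 and Pglyrp1 at 0.59 and Saa3 and Slpi at 0.74, while Saa1 and Saa2 differed by 1.02. The 7 group means share their libraries, so these values are a description without a test.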

How the data were processed

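The authors deposited whole-number read counts per gene, without normalization, for 36 libraries. Per the labels, RNA was prepared with TruSeq Stranded mRNA and sequenced on a NovaSeq; per the submitters' processing notes, Trimmomatic, HISAT2 2.1.0, SAMtools 1.9, HTSeq and GRCm39 were used. The strand setting, the treatment of reads with several matches and the annotation release are not given in the sources used here. Of 55414 genes 1416 had no symbol, 0 entries named no gene, and 0 columns belonged to other samples. Counts were tested with edgeR 4.0.16 (R 4.3.3; TMM, filterByExpr with a minimum count of 10 and total of 15, robust quasi-likelihood, 1 mean per group over all 36 libraries), with calls at an adjusted p (Benjamini-Hochberg) below 0.05. The code was tested on simulated counts. The tool alternatives were DESeq2 1.42.0, limma 3.58.1 (voom with sample weights) and sva 3.50.0 with 2 surrogate variables. The 10 genes, the lists and the tests were chosen with earlier results of these data known. All 10 genes are named, with up to 4 called genes per list at a mean of at least 1 CPM in the higher group, ordered by size of change and given here in part, and the 3 genes most alike in pattern. Coordinates are GENCODE's on GRCm39.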

Additional observations from a re-analysis of the deposited data

Results flagged for a closer look

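Of the 60 wound groups of 4 to 10 libraries examined, 1 per gene, arm and day, 12 held a library standing apart by Dixon's 95% criterion, each time the highest. The criterion gives about 1 in 20 for independent normal values. These were CPM without a log scale, and some libraries were flagged for several genes, so that rate is no measure of an excess here. At day 2 this was Saa2 in PD replicate 2, at 15.3 CPM with the next library at 4.39 CPM. At day 4 the libraries were PD replicate 2 for Ptx3 (64.8 CPM, next 27.5), PD replicate 3 for Pglyrp1 (89.9 CPM, next 33.4), and P replicate 4 for Slpi (831 CPM, next 211), Pglyrp1 (45.6 CPM, next 16.6) and Defb14 (41.6 CPM, next 9.82). At day 12 they were PD replicate 2 for Saa3 (135 CPM, next 8.2), Slpi (31.6 CPM, next 4.16) and Pglyrp1 (3.69 CPM, next 1.77), PD replicate 5 for Defb14 (4.31 CPM, next 2.16), P replicate 1 for Saa3 (94.2 CPM, next 25.9) and P replicate 2 for Pglyrp1 (5.59 CPM, next 2.62). P day 4 replicate 4 was the single library of its group in the set of 18, and PD day 12 replicate 2 lay in the set of 15. The cause of these values was not tested.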

How the results depend on the processing

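Over 160 results, 1 per gene and comparison, and 11 settings, 1604 of 1669 values kept direction and side of the threshold, 19 lost and 44 gained the call, and 2 reversed. With the library set as a covariate, a setting chosen after seeing the data, Lbp reversed to -0.92 for P day 4 against day 2 (edgeR, adjusted p = 0.0353) and 0.77 for P day 12 against day 4 (adjusted p = 0.0493), and P day 4 against day 2 was called for Ptx3 (-1.81, 0.00617), Saa1 (-1.81, 0.00305) and Hp (-1.64, 0.0126). The count of the 10 called for PD day 12 against unwounded skin, 5, was 3 without a filter, 8 with 2 surrogate variables and 3 with limma-voom. For P day 4 against day 2, 2, it was 1 without a composition factor, 1 without a filter, 4 with the replicate block, 5 with limma-voom, 1 with only the libraries compared and 6 with the library set. For PD day 4 against day 2, 3, it was 5 with limma-voom and 1 with only the libraries compared. limma-voom gave 2 for PD against P at day 4 and 4 for the change of that difference between days 2 and 4, each 0 in edgeR. The labels do not say if the replicate numbers pair the arms. Over 16 same-numbered pairs of PD and P libraries r ran from -0.25 to 0.54, with 11 over 0.1. Replicates 1 and 2 of every wound group lay in the set of 15, so the replicate block and the library sets overlap. With the replicate block the counts against unwounded skin were 10, 9 and 7 in PD wounds and 10, 10 and 9 in P wounds at days 2, 4 and 12. It called Lbp higher than in unwounded skin in PD wounds at day 2 and in P wounds on all 3 days (log2 1.83 to 2.37, adjusted p between 0.00121 and 0.00795), Ptx3 at day 12 in PD and P wounds (adjusted p = 0.00484 and 0.00352) and Defb14 at day 12 in PD wounds (0.0291). Between days it called Ptx3 lower at day 4 in P wounds (-1.28, 0.0383) and at day 12 in PD wounds (-0.98, 0.0385), and Defb3 higher at day 4 in P wounds (2.56, 0.0452). Leaving out 1 library gave counts against unwounded skin of 7 to 9, 8 to 9 and 2 to 5 in PD wounds and 7 to 9, 8 to 9 and 4 to 7 in P wounds on the 3 days. Between days it gave 2 to 3 and 6 to 8 in PD wounds, 1 to 3 and 5 to 7 in P wounds, and 0 between arms. Over all genes limma-voom called 6185 for P day 4 against day 2 (1746 in edgeR), 10703 for P day 12 against day 4 (4922), 4095 for PD day 4 against day 2 (880; 381 with only the libraries compared), 2056 for PD against P at day 4 (0), 2797 for its change between days 2 and 4 (0), and 12518, 13533 and 13720 for PD day 2, P day 4 and P day 12 against unwounded skin (8133, 8945 and 9028). DESeq2 called 23 for PD against P at day 2, 97 averaged over days and 87 for the change between days 4 and 12 (0 each). Without the composition factor, log2 changes over unwounded skin move by 0.24 in PD wounds and 0.27 in P wounds at day 12 and by at most 0.14 earlier. The causes were not tested. Depth limits Defb3 and Saa2, where a library holds few counts.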
